A study of Mus musculus with 4 samples.

Results

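The secretoglobins were followed in mouse mTEChi, the medullary thymic epithelial cells that carry high levels of MHC class II. Members were taken by name, as every RefSeq ID of the deposited gene counts whose gene symbol starts with Scgb. This gave 21 RefSeq IDs of 20 genes, out of 30794 RefSeq IDs and 23003 named genes in all. The 20 genes were Scgb1a1, Scgb1c1, Scgb3a1 and 17 androgen-binding protein genes, of which 8 belonged to the Scgb1b and 9 to the Scgb2b subfamily. RNA-seq counts came from 4 libraries, 2 of WT mice and 2 of Aire-KO mice (Aire-/-), which lack the functional autoimmune regulator Aire. All mice were 4 weeks old and on the C57BL/6 (B6) background, and each library was made from mTEChi sorted from the pooled thymi of 4 mice. A first experiment gave WT library 1 and Aire-KO library 1, and a replicate experiment gave WT library 2 and Aire-KO library 2. Sorting kept CD45- Ly51- cells with high I-A/E, the MHC class II of these mice. The comparison of WT with Aire-KO asks which transcripts depend on Aire in these cells.

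Secretoglobins are small secreted proteins of mammals that form dimers held together by disulphide bonds and can enclose a hydrophobic ligand. Scgb1a1 encodes the uteroglobin-like protein of airway club cells, Scgb3a1 a related protein of airway secretory cells, and the androgen-binding proteins are made in mouse salivary and lacrimal glands, where a Scgb1b subunit pairs with a Scgb2b subunit. Aire is known for letting mTEChi transcribe genes whose products belong to peripheral tissues, so that developing T cells meet them in the thymus.

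Aire itself was counted at 87229 reads in WT library 1 and 36597 in WT library 2, against 200697 in Aire-KO library 1 and 175884 in Aire-KO library 2. The Aire-KO libraries held more Aire reads than the WT libraries, so a count over the whole transcript did not check the labels. Libraries held between 111077552 and 242862323 counts. The mTEC marker list was abundant in all 4 libraries, with summed levels between 11572 and 24009 CPM (counts scaled to the size of the library), and 0 of its 10 genes passed the test in either direction with genotype alone, against 4 lower in WT in the model with the experiment as a block. Of 6 fibroblast markers 3 were lower in WT (Col1a2, Col3a1 and Dpt), against 5 with the block, with summed levels of 77.5 and 101 CPM in WT and 238 and 261 CPM in Aire-KO. Of 10 thymocyte markers none was called with genotype alone, but 4 (Cd3g, Dntt, Lck and Cd8a) were higher in WT with the block, and the median log2 fold change of the list was 1.35. Their sums were 33.5 and 56.8 CPM in WT and 29.2 and 38.0 CPM in Aire-KO. Of 4 B cell markers none was called with genotype alone and 1, Cd79a, was higher with the block, with sums of 7.06 and 7.84 CPM in WT and 6.52 and 3.79 CPM in Aire-KO. Of 7 dendritic cell and macrophage markers Adgre1 was higher in WT in both models, with sums of 283 and 521 CPM in WT and 346 and 359 CPM in Aire-KO. Of 6 cTEC markers Enpep, which encodes the Ly51 of the sort, was higher in WT, and with the block 2 were higher and 1 lower, with sums of 118 and 129 CPM in WT and 127 and 91.9 CPM in Aire-KO. None of the 5 endothelial markers was called in either model, with sums of 20.5 and 35.7 CPM in WT and 28.4 and 61.7 CPM in Aire-KO. As a scale for these lists, genotype alone called 5.58% of all IDs higher in WT and 0.258% lower. With the block, those shares rose to 16.5% and 10.4%. The part of these cell types in the secretoglobin levels was not tested. In such bulk samples, fewer cells that express a gene and less RNA per cell cannot be told apart.

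The members differ in how well a short read can tell them apart, so their sequences come first. In the mm9 genome, 15 of the 17 androgen-binding protein genes were placed on chromosome 7 within 2.81 Mb, at chr7:32075539-34885856, by the GENCODE annotation. Scgb1b3 and Scgb2b19 had no unambiguous entry there. The first 30 coding bases are shown for members of the Scgb1b subfamily, read 5′ to 3′ on the strand of the gene, with capitals for the bases that differ from Scgb1b27.
Scgb1b27: atgaagctcactggtgctctcttgctgctc
Scgb1b24: atgaagctcGctggtgctctcttgctgctc
Scgb1b2: atgaagctcactggtgctctGGtgAtCctc
These stretches lie at chr7:34806587-34806616 (plus strand) for Scgb1b27, at chr7:34528818-34528847 (plus) for Scgb1b24 and at chr7:32076790-32076819 (minus) for Scgb1b2. Scgb1b24 differed from Scgb1b27 at 1 base and Scgb1b2 at 4 bases. Of those not shown, Scgb1b30 differed at 2 bases, and Scgb1b7, Scgb1b20 and Scgb1b29, identical to each other here, at 7 bases.

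In the Scgb2b subfamily, the genes compared over these bases differed from Scgb2b27 at no more than 1 base. The same 30 bases are shown for the pair that most resembled each other and for the most abundant member, with capitals for bases that differ from Scgb2b27.
Scgb2b27: atgaaggggacacttcttctgctggccttg
Scgb2b20: atgaaggggacacttcttctgctggGcttg
Scgb2b7: atgaaggggacacttcttctgctggGcttg
They lie on the minus strand at chr7:34798856-34798885, chr7:34151290-34151319 and chr7:32490728-32490757 in mm9. Scgb2b2, Scgb2b24 and Scgb2b26 had the sequence of Scgb2b27 here, with 0 differences. Over all exons, 219 of the 373 windows of 50 bases in Scgb2b7 (58.7%) and 217 of 373 in Scgb2b20 (58.2%) occurred at another place in mm9, and 199 windows were shared between both genes. For Scgb1b7 the share was 91.9%, for Scgb1b29 91.9% and for Scgb1b20 90.3%. It was 12.6% for Scgb2b2, 8.33% for Scgb2b27 and 2.31% for Scgb2b26. No window of Scgb1b27, Scgb1b2, Scgb1b24, Scgb2b24, Scgb2b3, Scgb1b30, Scgb1a1, Scgb1c1 or Scgb3a1 was repeated exactly. When 2 mismatches were allowed, more windows had a copy elsewhere in the cluster, 50% of them in Scgb1b27, 36.7% in Scgb2b27, 37.7% in Scgb2b26, 16.2% in Scgb2b24 and 3.32% in Scgb1b2. Since how the authors treated reads that map to several places is not given in the sources used here, the counts of Scgb2b7, Scgb2b20, Scgb1b7, Scgb1b20 and Scgb1b29 cannot be assigned to 1 gene with certainty, and a read with mismatches may be misplaced in the others as well.

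Of the secretoglobin genes analysed, Scgb1a1 was the most abundant in WT mTEChi, followed by Scgb1c1 and Scgb3a1. The androgen-binding protein genes were counted at low levels there. Scgb3a2 and many further Scgb1b and Scgb2b genes and pseudogenes had no matched RefSeq ID and were not analysed. In Aire-KO mTEChi, Scgb3a1 was lower, Scgb1a1 had a lower mean that narrowly missed the test, and the androgen-binding protein genes were at 0 with the exception of 1 read of Scgb1b30. Of the 21 RefSeq IDs, 10 passed the filter on low counts and were tested, and 4 of them, belonging to the 3 genes Scgb3a1, Scgb1b27 and Scgb2b27, were higher in WT (edgeR's quasi-likelihood test, Benjamini-Hochberg adjusted p under 0.05). Over all 26790 RefSeq IDs tested, 1495 (5.58%) were higher in WT. No secretoglobin was lower in WT, against 69 of all IDs (0.258%). DESeq2 also called 0 of them lower (1.91% of all IDs), and so did the model with the experiment as a block (10.4% of all IDs). For the 6 tested androgen-binding protein genes, at 0 in Aire-KO, a lower call could not occur. In all 10 tested secretoglobin IDs both WT libraries lay above both Aire-KO libraries in CPM, as in 28.4% of all IDs tested. The libraries pair by experiment, and with the experiment as a block 9 of the 10 IDs, from 8 genes, were higher in WT, against 16.5% of all IDs. DESeq2 called 9 as well, against 11.9% of all IDs. The tested androgen-binding protein genes passed the filter through their WT counts alone, so that a difference was built into their selection, and no median over the tested members is given.

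**Figure D1:**
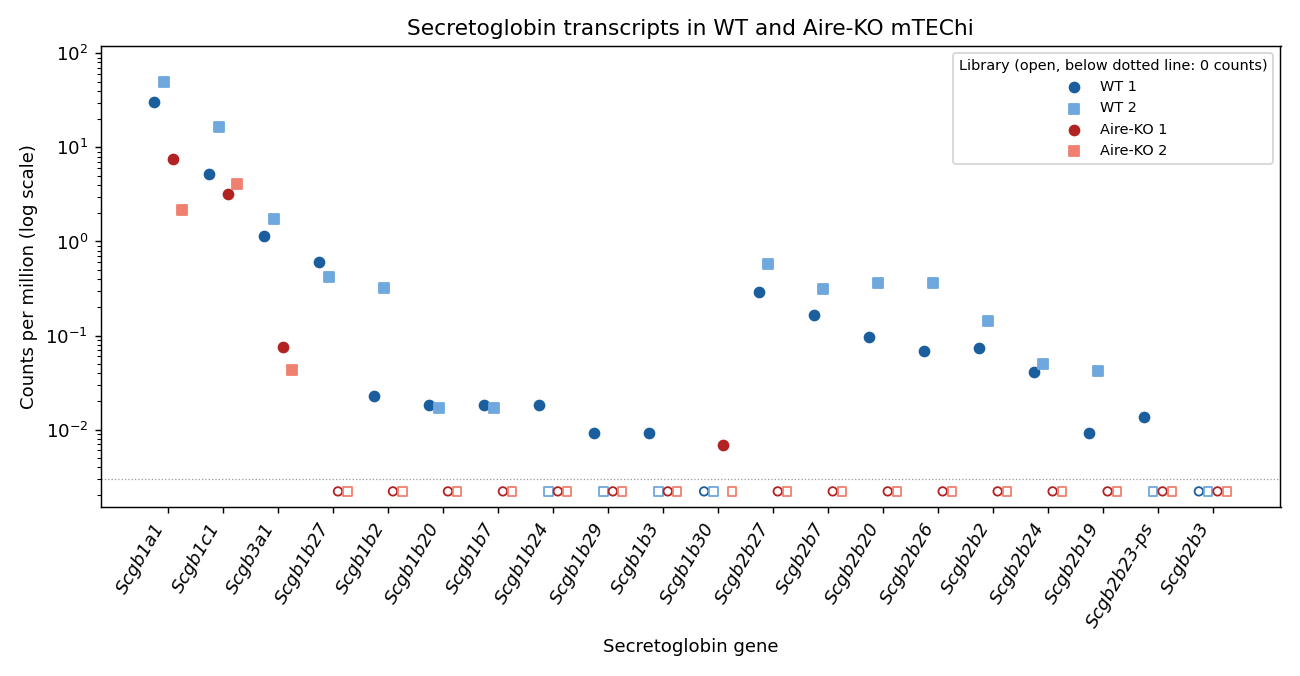
Level of each of the 20 secretoglobin genes in CPM on a log scale, with 1 symbol per library (blue for WT, red for Aire-KO, circles for the first and squares for the replicate experiment). Open symbols under the dotted line stand for 0 counts. Scgb1a1, Scgb1c1 and Scgb3a1 have reads in all 4 libraries, whereas 16 of the 17 androgen-binding protein genes have none in Aire-KO.

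Scgb1a1, the club cell secretoglobin, lies on chromosome 19 (mm9 chr19:9158126-9162448, minus strand, 3 exons). It was counted at 6667 reads in WT library 1 and 5953 in WT library 2, and at 1091 in Aire-KO library 1 and 494 in Aire-KO library 2. These were 30.4 and 49.9 CPM in WT and 7.51 and 2.15 CPM in Aire-KO. Both WT libraries lay above both Aire-KO libraries, and the ratio between the Aire-KO libraries was larger than that between the WT libraries. The mean level was 40.2 ± 13.8 CPM in WT and 4.83 ± 3.79 CPM in Aire-KO (SD, n = 2 libraries each). The log2 fold change of WT over Aire-KO was 3.06 with a standard error of 0.68, and the edgeR adjusted p was 0.0530, just outside the threshold. With the experiment as a block, the edgeR adjusted p was 3.90e-04. Scaled by library sizes alone, with median-of-ratios size factors or without the filter on low counts, Scgb1a1 was called as well, and it passed in 9 of 11 alternatives. WT exceeded Aire-KO 4.06-fold in the first experiment and 23.2-fold in the other.

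Scgb3a1, known in humans as a growth-inhibitory cytokine-like protein of secretory epithelia, lies on chromosome 11 (mm9 chr11:49477112-49478620, plus strand). Its RefSeq ID NM_170727, which includes an extra exon upstream of the coding part, had 249 and 206 reads in WT and 11 and 10 reads in Aire-KO. The other ID, NM_054037, had 241 and 194 reads in WT and the same 11 and 10 in Aire-KO, so that the IDs share nearly all their reads and count as 1 gene. The groups did not overlap, and both WT libraries lay close together. Levels of NM_170727 were 1.43 ± 0.418 CPM in WT and 0.0596 ± 0.0228 CPM in Aire-KO (SD, n = 2 each). The log2 fold change was 4.59 with a standard error of 0.76 and an edgeR adjusted p of 0.0299 for NM_170727, and 4.52 with a standard error of 0.76 and an edgeR adjusted p of 0.0309 for NM_054037. For NM_170727 the first experiment gave a fold of 15.0 and the replicate one of 39.7. Without WT library 2, NM_054037 lost its call, with an edgeR adjusted p of 0.0569, and NM_170727 kept it at 0.0495.

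Scgb1c1, a secretoglobin described in the olfactory mucosa of rodents, lies near the far end of chromosome 7 (mm9 chr7:148031464-148032667, plus strand), away from the androgen-binding protein genes. It had 1142 and 1942 reads in WT and 464 and 940 in Aire-KO. In CPM the WT libraries stood at 5.22 and 16.3, above 3.19 and 4.09 in the Aire-KO libraries, with WT library 1 close to the Aire-KO libraries. The log2 fold change was 1.56 with a standard error of 0.61 and did not pass the test (edgeR adjusted p = 0.210), whereas the edgeR adjusted p was 0.0133 with the experiment as a block. Without WT library 2 its log2 fold change was 0.51, with an edgeR adjusted p of 0.935. The first experiment gave a fold of 1.63 and the replicate one of 3.98.

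**Figure D2:**
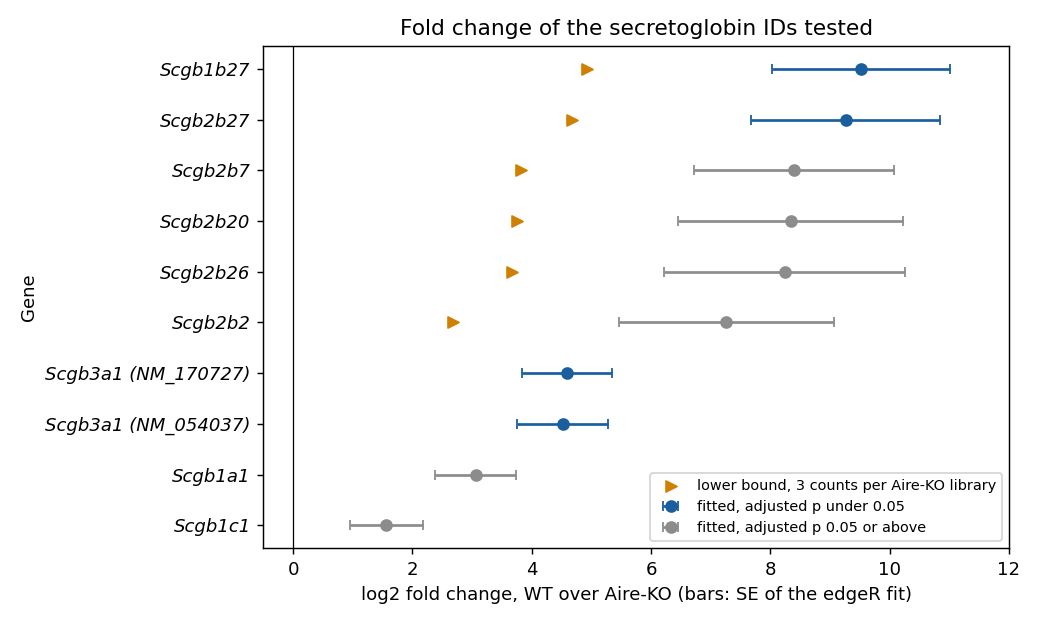
Fitted log2 fold change of WT over Aire-KO for the 10 secretoglobin RefSeq IDs tested, with the standard error of the edgeR fit as bars, blue where the adjusted p was under 0.05 and grey otherwise. Triangles give the lower bound against 3 counts per Aire-KO library for genes at 0 there, which range from 2.68 for Scgb2b2 to 4.93 for Scgb1b27, below the fitted values.

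Among the androgen-binding protein genes, 15 of 17 had reads in a WT library, 11 had reads in both WT libraries, and 1 had a read in an Aire-KO library. Scgb2b3 had no read in any library. Summed over the 17 genes, 319 reads were counted in WT library 1 and 311 in WT library 2, against 1 in Aire-KO library 1 and 0 in Aire-KO library 2. The sums do not depend on how reads were divided among these 17 genes. They would change if reads shared between near-identical copies were discarded, counted more than once or assigned to copies outside the 17. As a reference, 3439 RefSeq IDs had between 15 and 183 reads over the WT libraries, the range of the 8 androgen-binding protein genes with at least 10 WT reads, and 631 of them (18.3%) had 0 reads in both Aire-KO libraries. All 8 genes were at 0 there. At this depth 3 reads correspond to 0.0206 CPM in Aire-KO library 1 and 0.0130 CPM in Aire-KO library 2, so lower levels were not detectable, and these floors cover counting error only.

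The Scgb1b genes encode the alpha subunit. Scgb1b27, the alpha subunit of mouse salivary androgen-binding protein, had 133 reads in WT library 1, 50 in WT library 2 and 0 in both Aire-KO libraries. The levels of 0.607 and 0.419 CPM in WT gave it the highest mean of the 17 genes, a rank that rests on WT library 1, since Scgb2b27 was higher in WT library 2. It was at least 30.5-fold higher in WT when set against 3 counts per Aire-KO library. The fitted log2 fold change of 9.52 (standard error 1.49, edgeR adjusted p = 0.0343) depends on the prior count of the fit and is no bound. It passed the test in all 11 alternatives run. Scgb1b2, in contrast, had 5 and 38 reads in WT, so that WT library 2 held most of them, and 0 in Aire-KO. It did not pass the filter, and it was at least 10.1-fold higher in WT against the same floor, a value that rests on WT library 2, since the first experiment alone gave at least 1.11-fold.

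The other Scgb1b genes had fewer than 10 reads in every library. Scgb1b7 and Scgb1b20 had 4 reads in WT library 1 and 2 in WT library 2 each, the same counts for a pair of genes of which 139 of the 154 windows of Scgb1b20 also occur in Scgb1b7. Scgb1b3 and Scgb1b29 had 2 reads in WT library 1 each and none elsewhere, and Scgb1b24 had 4 reads in WT library 1 only. Scgb1b30 was the exception in direction, with 1 read in Aire-KO library 1 and none in WT, which is within the counting limit of both genotypes. Summed over the subfamily, 154 and 92 reads in WT stood against 1 and 0 in Aire-KO. The ratio of these counts, scaled by library size, was 273, with a counting interval from 48.5 to 10825 (95%, exact). The fitted log2 fold change of the sum was 7.68 with a standard error of 1.27 (edgeR adjusted p = 0.0296), where 6.29% of 20556 rows were higher in WT.

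The Scgb2b genes encode the beta and gamma subunits that pair with an alpha subunit. Scgb2b27 had 63 and 68 reads in WT and 0 in both Aire-KO libraries, that is 0.288 and 0.571 CPM in WT. It was at least 25.5-fold higher in WT, with a fitted log2 fold change of 9.26 (standard error 1.59, edgeR adjusted p = 0.0391). Without WT library 2 its edgeR adjusted p was 0.0741, the only one of its 11 alternatives in which it was not called. Scgb2b7 had 36 and 37 reads in WT and was at least 14.1-fold higher, with an edgeR adjusted p of 0.0524 that missed the threshold. Scgb2b20 had 21 and 43 reads in WT and was at least 13.6-fold higher (edgeR adjusted p = 0.0681).

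Scgb2b26, the gamma subunit, had 15 and 43 reads in WT, with a bound of at least 12.7-fold (edgeR adjusted p = 0.0803). Scgb2b2, which was first described as a lacrimal androgen-binding protein, had 16 and 17 reads, with a bound of at least 6.40-fold (edgeR adjusted p = 0.0832). All of these were at 0 in both Aire-KO libraries, and the WT and Aire-KO libraries did not overlap. With the experiment as a block, the edgeR adjusted p fell to 0.0266 for Scgb2b7, 0.0328 for Scgb2b20 and 0.0393 for Scgb2b26, whereas it was 0.0914 for Scgb2b2. Scgb2b2 passed the test in 0 of its 11 alternatives. All these bounds rest in part on WT library 2, since the first experiment alone gave at least 13.9-fold for Scgb2b27, 7.96-fold for Scgb2b7, 4.65-fold for Scgb2b20, 3.54-fold for Scgb2b2 and 3.32-fold for Scgb2b26.

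Scgb2b24 had 9 and 6 reads in WT, Scgb2b19 had 2 and 5, and the pseudogene Scgb2b23-ps had 3 reads in WT library 1 only, all with 0 in Aire-KO. Against the floor, Scgb2b24 was at least 2.71-fold and Scgb2b19 at least 1.52-fold higher in WT. Scgb2b23-ps was at the floor itself, so no fold is given. Summed over the subfamily, 165 and 219 reads in WT stood against 0 and 0 in Aire-KO, a difference of at least 76.9-fold, or at least 36.5-fold in the first experiment alone. The fitted log2 fold change of the sum was 10.83 with a standard error of 1.43 (edgeR adjusted p = 0.0257).

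**Figure D3:**
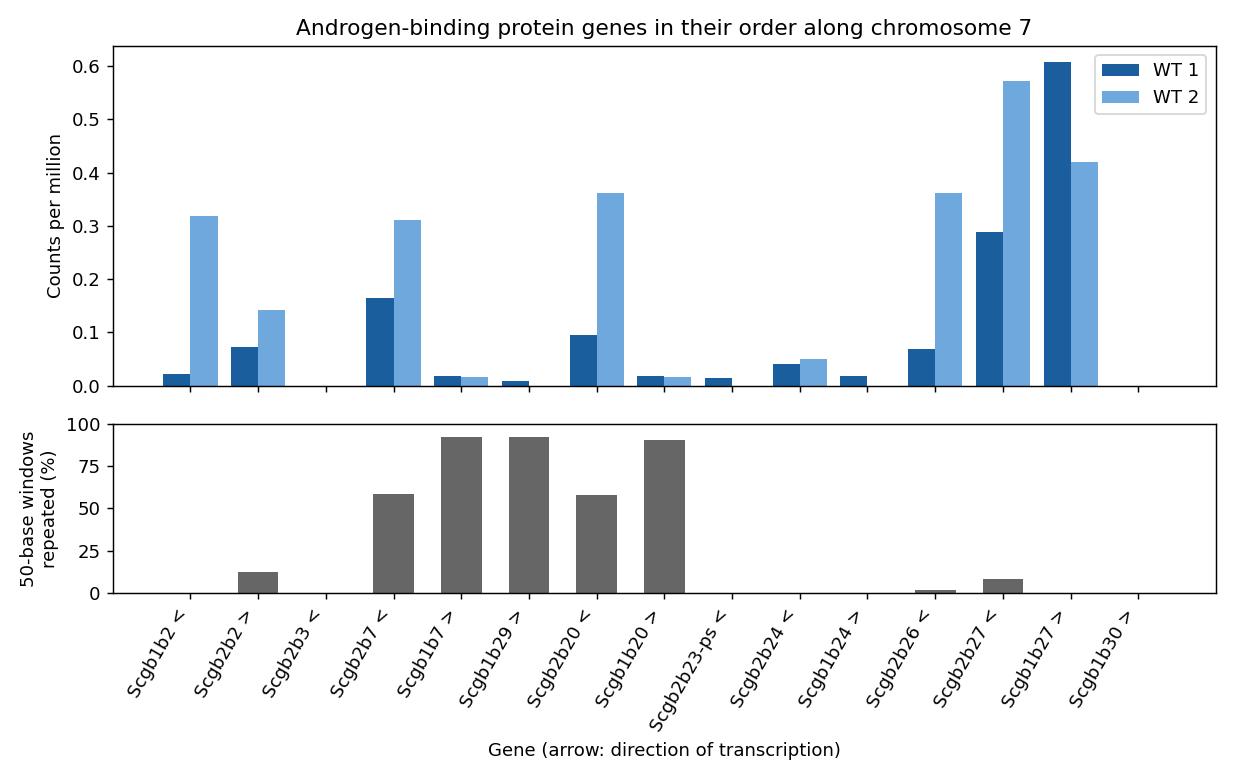
Androgen-binding protein genes in their order along chromosome 7, with their direction of transcription. The upper bars give the level in WT library 1 and WT library 2 in CPM, and the lower bars the percentage of 50-base windows of the exons that occur again in mm9. Scgb2b27 and Scgb1b27 have the highest levels, and Scgb1b7, Scgb1b29 and Scgb1b20 the highest share of repeated windows.

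Levels differed along the cluster. Scgb2b27 and Scgb1b27, neighbours that lie head to head with 7540 bp between them, held the highest counts. The other pairs lay head to head in the same way, and their subunits were counted unequally. Scgb2b7 had 36 and 37 reads where its neighbour Scgb1b7, 6907 bp away, had 4 and 2. Scgb2b20 had 21 and 43 reads where Scgb1b20, 6930 bp away, had 4 and 2. For both of these Scgb1b genes over 90% of the windows are repeated, so their low counts cannot be told apart from reads lost or assigned elsewhere. Scgb2b24 and Scgb1b24, 4479 bp apart and free of exact repeats, had 9 and 6 reads against 4 and 0. Scgb2b2 and Scgb1b2, 10944 bp apart, had 16 and 17 reads against 5 and 38.

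The WT libraries did not hold the same mixture of these genes. Scgb1b27 made up 41.7% of the androgen-binding protein reads in WT library 1 (95% exact binomial interval 36.2 to 47.3%) and 16.1% in WT library 2 (12.2 to 20.6%). Scgb1b2 made up 1.57% (0.511 to 3.62%) and 12.2% (8.79 to 16.4%). Scgb2b26 made up 4.70% (2.66 to 7.64%) and 13.8% (10.2 to 18.2%), and Scgb2b20 made up 6.58% (4.12 to 9.89%) and 13.8% (10.2 to 18.2%). In each of these genes the intervals of both libraries were apart, and they cover counting error only, since reads amplified by PCR are not independent molecules. The share of Scgb2b7, which shares windows with Scgb2b20, was 11.3% and 11.9%, and that of Scgb2b27 was 19.7% and 21.9%, with overlapping intervals.

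The nearest counted protein-coding genes on either side of the cluster did not pass the test. Wtip, the nearest counted protein-coding gene on one side at a distance of 8706 bp, stood at 0.45 on the log2 scale of the fold change (standard error 0.64, edgeR adjusted p = 0.801). Gramd1a, at 139470 bp on the other side, stood at -0.40 (standard error 0.36, edgeR adjusted p = 0.641). Ahnak, 6717 bp from Scgb1a1, had -0.64 (standard error 0.71, edgeR adjusted p = 0.726), and Cnot6, 6385 bp from Scgb3a1, had -0.32 (standard error 0.52, edgeR adjusted p = 0.833). Beside Scgb1c1, Odf3 at 1037 bp had 1.30 (standard error 0.94, edgeR adjusted p = 0.543). Syce1, at 57711 bp from Scgb1c1, had 198 and 76 reads in WT and 9 and 3 in Aire-KO, with a log2 fold change of 4.40 (standard error 1.03, edgeR adjusted p = 0.0605), and it was higher in WT with the experiment as a block (edgeR adjusted p = 0.00883). A p that misses the threshold does not show that these genes were unchanged.

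**Figure D4:**
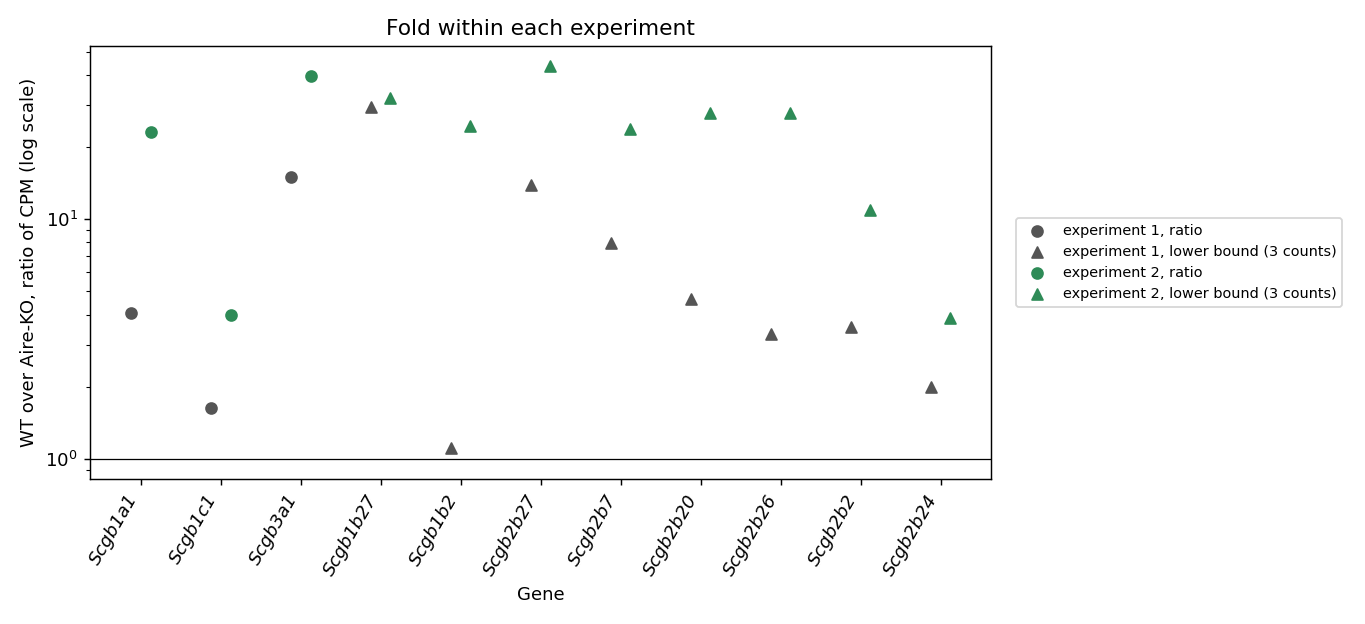
Ratio of WT over Aire-KO CPM within the first (grey) and the replicate (green) experiment, on a log scale. Circles are ratios and triangles are lower bounds against 3 counts, which also depend on the depth of the libraries. For each of the 11 genes shown the value of the replicate experiment is the higher one, as for Scgb1a1 with 4.06 and 23.2.

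Levels were set in order per length, as CPM per kilobase of exon (RPKM), for the genes whose length the deposited feature counts give. In WT, Scgb1a1 stood first with 65.1 and 107 RPKM, followed by Scgb1c1 with 11.9 and 37.3 RPKM and Scgb3a1 (NM_170727) with 1.90 and 2.89 RPKM. Scgb1b27 came next with 1.49 and 1.03 RPKM, and Scgb2b27 after it with 0.507 and 1.01 RPKM. The libraries of these neighbours in the order did not overlap, but Scgb1b27 and Scgb2b27 were nearly equal in WT library 2, at 1.03 and 1.01 RPKM. Their order thus rests on WT library 1. Below them, Scgb2b20, Scgb1b2 and Scgb2b26 had mean levels of 0.439, 0.408 and 0.406 RPKM and did not differ beyond the spread of their libraries. Scgb2b2 had a mean of 0.211 RPKM and Scgb2b24 of 0.0909 RPKM. In Aire-KO, Scgb1a1 (16 and 4.59 RPKM) and Scgb1c1 (7.31 and 9.36 RPKM) overlapped. With lengths reduced to the positions at which a read of 50 bp fits inside an exon, 10 of 12 genes kept their rank, and Scgb2b20 and Scgb1b2 changed places.

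Reads were also divided by part of the transcript, and 14 of the 21 secretoglobin IDs had such counts. All shares below are of the reads assigned to a part. For some genes, Scgb1a1 among them, the parts together held fewer reads than the count of the whole transcript. For the ID NM_054037 of Scgb3a1 they held more in WT. None of the 14 IDs had a d3’UTR, the stretch past a proximal polyadenylation site, so their use of such sites was not measured here. For Scgb1a1 the last exon held 25.3% and 29% of the assigned reads in WT and 29.2% and 27.3% in Aire-KO. Both genotypes thus spanned much the same range. For Scgb1c1 it held 32.3% and 28.0% in WT and 32.1% and 29.1% in Aire-KO. For Scgb3a1 (NM_170727) the 5′UTR held 40 and 36 reads in WT, that is 16.1% and 18.3%, and 0 of 11 and 0 of 10 reads in Aire-KO. A count of 0 allows a share of up to 27.3% in Aire-KO library 1, so a difference from WT was not detectable in a single library. Scgb2b27 had 44.4% and 39.7% of its WT reads in the last exon, and Scgb1b27 had 34.6% and 15.6%. All 15 WT reads of Scgb2b24 fell in the coding exons before the last one, whereas all 7 of Scgb2b19 fell in the last exon.

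RefSeq promoter windows (GRCm38.p6, from 250 bases before to 50 after the start site) were matched for 14 of the 20 genes. The letters TATAAA, on either strand, occurred in 11 of these 14 windows, and in 13.6% of all 32851 promoters of the same length. In 8 of the 11 they lay before the start site, and in Scgb1b27, Scgb1b30 and Scgb2b27 after it, at positions 42, 38 and 26. Of those 8, Scgb1b2, Scgb1b24 and Scgb2b19 had TATAAA on the strand of the gene, and the others only on the opposite strand. The C/EBP letters TTGCNNAA occurred in 11 of 14, against 10.8% of all promoters. All windows with TATAAA or the C/EBP letters belonged to androgen-binding protein genes. The windows of Scgb1c1 and Scgb3a1 held neither, and Scgb1a1 had no matched window. The Nkx2-1 letters TCAAGTG or CTCAAG occurred in 4 of 14 (17.6% of all) and the forkhead letters TGTTTAC or TGTTTGC in 5 of 14 (8.48% of all). The paralogs arose by duplication and share sequence, so these windows are not independent of each other, and a match does not show that a factor binds. The windows around TATAAA are shown for an alpha subunit counted in both WT libraries and one counted in a single WT library, with the motif in capitals.
Scgb1b2: gaccagggcagtTATAAAatgggaccaagc
Scgb1b24: gaccagggcagtTATAAAagatgaccaaac
They lie at chr7:31291828-31291857 (minus strand) and chr7:33743743-33743772 (plus strand) in GRCm38.p6, with the motif starting at position -29 and -28 from the start site. The letters TATAAA were thus at nearly the same place in front of Scgb1b2, with 5 and 38 WT reads, and Scgb1b24, with 4 and 0.

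Genes of the tissues in which secretoglobins are made were compared in the same model. Of 20 genes chosen for airway club and goblet secretory cells, 14 were higher and 0 lower in WT (5.58% and 0.258% of all RefSeq IDs). The list was not limited to genes specific to these cells, as it holds Sftpc and Krt15. Its median log2 fold change was 3.11, beside 0.00 over all genes. The gel-forming mucin Muc5ac had 7156 and 6466 reads in WT and 47 and 71 in Aire-KO, with a log2 fold change of 7.10 and an edgeR adjusted p of 0.0176. The airway secreted protein Bpifb1 had 3089 and 3849 reads in WT and 93 and 172 in Aire-KO (log2 fold change 5.06, edgeR adjusted p = 0.0176). Ltf, lactoferrin, and Gabrp, a GABA receptor subunit, were the next by p, with log2 fold changes of 4.63 and 3.18. The others called were Cyp2f2, Bpifa1, Lypd2, Muc5b, Sftpb, Sftpc, Sftpd, Reg3g, Tff2 and Agr2.

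Of 19 lacrimal, salivary and scent secretory genes counted, 18 were tested, and 12 were higher and 0 lower in WT, against the same shares of all IDs. Many of them had 0 or few reads in Aire-KO and passed the filter through WT alone, so that no median is given. The parotid and demilune genes Dcpp1, with 1897 and 2274 reads in WT and 1 and 0 in Aire-KO, and Dcpp2, with 1191 and 1191 reads in WT and 0 and 0 in Aire-KO stood nearly at 0 without Aire, as the androgen-binding proteins did. Mup4, of the major urinary protein family, had 507 and 317 reads in WT and 0 and 0 in Aire-KO, and Dcpp3 had 1414 and 1395 reads in WT and 5 and 4 in Aire-KO. The others called were Bpifa2, Obp1a, Lcn3, Lcn4, Lcn11, Mup5, Aqp5 and Car6. Lpo, lactoperoxidase, was not called (log2 fold change -0.07, edgeR adjusted p = 0.966).

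Of 15 transcription factors of airway secretory cells, 2 were higher and 0 lower in WT, against 5.58% of all IDs higher. Nkx2-1, which drives Scgb1a1 in the lung, had 190 and 112 reads in WT and 11 and 7 in Aire-KO (log2 fold change 4.11, edgeR adjusted p = 0.0462). Spdef, a factor of goblet cells, had 695 and 764 reads in WT and 78 and 143 in Aire-KO (log2 fold change 3.04, edgeR adjusted p = 0.0385). Of 9 proteins described as receptors or partners of secretoglobins, 3 were higher and 0 lower in WT, against 5.58% of all IDs higher. The 3 were Marco, Fpr2 and Ptgdr. Marco, a scavenger receptor of macrophages, had 1044 and 876 reads in WT and 139 and 255 in Aire-KO. Fpr2, a formyl peptide receptor, had 67 and 51 reads in WT and 0 and 0 in Aire-KO. It passed the filter through WT alone, so that its direction was built in. Ptgdr, a prostaglandin D receptor, had 1305 and 574 reads in WT and 136 and 165 in Aire-KO. With the experiment as a block, 17 airway, 15 gland, 6 factor and 4 partner genes were higher and 0 lower, against 16.5% of all IDs higher and 10.4% lower.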

How the data were processed

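RNA-seq was compared between mTEChi of WT and Aire-KO mice, 2 libraries each. The authors cut and merged paired sequences into single-end reads (50 bp), used CASAVA to remove poor reads, aligned to mm9 by Bowtie 1.0.0 and deposited raw counts per RefSeq ID of reads wholly inside RefSeq exons (bedtools), and counts per transcript part with its length. The libraries do not mark strand. Of 30794 RefSeq IDs, 29352 (95.3%) matched a gene symbol. Scgb genes of the reference without a matched ID (33 of 53) were not analysed here. Apart from Scgb2a2 and Scgb3a2 they were Scgb1b or Scgb2b genes or pseudogenes, so these subfamilies are covered only in part.

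For all IDs that passed filterByExpr, deposited counts scaled by TMM entered the quasi-likelihood test of edgeR 4.0.16 with genotype as the only term, with Benjamini-Hochberg adjustment and a threshold of 0.05. With genotype alone, p-values rest on the spread between the 2 pools of a genotype, which includes the difference between experiments. With the block, that difference is taken out of the spread. In both models the estimate of the spread borrows from all IDs tested. The experiment pairs the libraries, as the study describes a replicate experiment, and deviations of libraries of one experiment correlated at 0.52 across 19771 genes. In simulated data for this test over 26790 IDs, 36 of 100 IDs changed 4-fold and 93 of 100 changed 16-fold were called. There were 4 false calls among 26590. The changed IDs were drawn at random from all tested IDs and the simulated libraries were not paired. These rates may therefore not hold for the low counts of most members. Genes at 0 are given as bounds against 3 counts per library. CPM used TMM-scaled library sizes. Repeated 50-base windows were counted in mm9 over GENCODE exons, on both strands, without mismatches. DESeq2 1.42.0, scaling, filters, pairing, summed paralogs, lengths and leaving out each library were the alternatives. The block and left-out libraries for summed subfamilies were added after seeing the data. Every Scgb gene analysed is named, and those with at least 10 counts in a library are given in full. Of other lists, every gene called with genotype alone is named, with values for at most the 4 of smallest p, and marker lists are given by their sums. The members and lists were chosen with earlier results of these data known. The software was Python 3.11.15 (scipy 1.17.1, pandas 2.3.3, numpy 2.4.6) and R 4.3.3.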

Additional observations from a re-analysis of the deposited data

How the results depend on the processing

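All 108 log2 fold changes of tested secretoglobin IDs under 11 alternatives were above 0. For the 6 tested androgen-binding protein genes this sign was fixed in advance, since they had 0 reads in both Aire-KO libraries. The number of IDs higher in WT was 4, and it rose to 7 with library sizes alone, where the median over all RefSeq IDs was 0.26 instead of -0.03 (log2), to 9 with DESeq2 and to 9 with the replicate block. Leaving out 1 library gave between 3 and 9 IDs, with 8 without WT library 1, 9 without Aire-KO library 1 and 8 without Aire-KO library 2. Over all RefSeq IDs the higher calls rose as well, to 1934 of 26675, 3664 of 27431 and 2754 of 27444 in that order, from 1495 of 26790. The higher and lower calls over all of them were 1495 and 69, against 4428 and 2777 with the replicate block, 3528 and 565 with DESeq2 and 2470 and 55 with library sizes alone. None of these settings called a secretoglobin lower, which for those 6 androgen-binding protein genes could not occur. The cause of these shifts was not tested. The summed Scgb1b and Scgb2b log2 fold changes kept their calls, between 6.54 and 10.11 and between 10.20 and 11.13 without 1 library, and at 7.70 and 10.94 with the replicate block. With 2 pools per genotype, 1 library decided several calls. Reads shared between near-identical paralogs limit single androgen-binding protein genes more than their sums. The sums would still change if such reads were discarded, counted more than once or assigned to copies that were not analysed.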
